A study of Homo sapiens with 6 samples.

Results

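SMAD4 binding was mapped by chromatin immunoprecipitation followed by sequencing (ChIP-seq) in 786-O, an established cell line from renal cell carcinoma. The regions described here are all SMAD4 peaks on chromosomes 1 to 22 and X. There were 46309 of them, out of 118277 peaks in the lists of the 3 factors of the series, which are HA-tagged DPF3a, SMAD4 and p300, all in 786-O. Per the study, the DPF3a ChIP was done in 786-O cells made to overexpress HA-tagged DPF3a. That chromatin was crosslinked with DSG before formaldehyde. The SMAD4 and p300 ChIP is described for 786-O cells without mention of overexpression, and with formaldehyde alone. Overlaps with DPF3a peaks below are therefore between unlike cells and fixations. The SMAD4 chromatin came from 2 replicate libraries made with an antibody against SMAD4 itself, and the labels name no added ligand, genotype change or time point for it. A single peak list stands for both libraries, and how they were combined is not given in the sources used here, so read numbers at a summit may be sums over the libraries or not. No value below has a spread between replicates, and no test between groups was possible. Shares are given with 95% Wilson intervals in parentheses, which cover counting error only. The summit of a peak is the base with the most reads, and fold enrichment is the peak caller's ratio of reads at the summit to the local background. All coordinates are in hg38.

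SMAD4 is the common partner of the receptor-activated SMAD proteins. TGF-β or BMP ligands bring type I and type II receptor kinases together, the receptors phosphorylate SMAD2 and SMAD3 or SMAD1, SMAD5 and SMAD9, and these enter the nucleus with SMAD4. SMAD proteins read short DNA elements, the SMAD box CAGAC and GC-rich variants such as GGCGC, and usually bind beside other transcription factors that differ between cell types. In renal cell carcinoma cells TGF-β signalling is studied for its part in cell migration.

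A longer SMAD element is the palindrome GTCTAGAC, which joins the core AGAC of the SMAD box to its reverse complement. It lay within 50 bp of 110 of the 46309 summits. The strongest summits that carry it are shown first because this is the longest SMAD element among the motifs searched. Each run is the plus strand of hg38 from 50 bp before to 50 bp after the summit, and capitals mark the palindrome.
STARD4-AS1 intron, chr5:111563571-111563671: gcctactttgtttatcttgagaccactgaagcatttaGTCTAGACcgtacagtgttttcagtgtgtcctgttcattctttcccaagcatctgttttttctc
GNG7 region, chr19:2611212-2611312: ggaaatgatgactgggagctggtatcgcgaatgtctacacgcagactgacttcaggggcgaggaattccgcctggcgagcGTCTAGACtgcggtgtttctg
ALG10 region, chr12:33795717-33795817: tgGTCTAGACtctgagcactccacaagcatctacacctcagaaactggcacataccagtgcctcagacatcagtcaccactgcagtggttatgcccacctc
BTBD16 intron, chr10:122301324-122301424: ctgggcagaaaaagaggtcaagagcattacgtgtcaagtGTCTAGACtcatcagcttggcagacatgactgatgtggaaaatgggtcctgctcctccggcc
CYP24A1 region, chr20:54123702-54123802: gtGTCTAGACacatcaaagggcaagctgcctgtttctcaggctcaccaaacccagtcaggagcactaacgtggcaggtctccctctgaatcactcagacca
BMPR1B intron, chr4:95130109-95130209: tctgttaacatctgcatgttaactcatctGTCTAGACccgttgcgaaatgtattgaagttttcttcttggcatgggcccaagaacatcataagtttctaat

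The fold enrichment at these palindromes was 21.6 in the STARD4-AS1 intron, 20.1 in the GNG7 region, 19.3 at -226729 bp from ALG10 (negative distances are upstream of the canonical start), 17.8 in the BTBD16 intron, 17.0 at 50234 bp downstream of the CYP24A1 start and 15.9 in the BMPR1B intron. BMPR1B encodes a type I BMP receptor, and its palindrome lay 372204 bp inside the gene from the canonical start. The next 4 palindromes by fold enrichment lay at -14104 bp from BNIP5 with 15.3, in a FRY intron with 14.9, in a HAUS7 intron with 14.5 and at -562124 bp from SLIT2 with 14.3. The GNG7 summit had the highest −log10 q of all SMAD4 peaks, 295. Of the 110 palindromes, 92 lay outside promoters. Outside promoters the median fold enrichment was 8.25 at summits with the palindrome and 5.85 at summits without it.

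The next question was where SMAD4 peaks lie relative to genes. Promoter windows reached 1000 bp upstream and 100 bp downstream of every transcript start in the GENCODE 44 annotation. These windows cover 4.38% of the sequence and held 13815 summits, 29.8% of all (29.4 to 30.3). Introns held 19997 summits or 43.2%, intergenic sequence 10686 or 23.1%, noncoding exons and untranslated regions 1176 or 2.54%, and coding exons 635 or 1.37%. The median distance to the nearest transcript start was 4398 bp, with quartiles of 168 and 15909 bp. In the DPF3a list the same median was 7056.5 bp and in the p300 list 1759.5 bp.

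Summits piled up directly on transcript starts. The first 49 bp after a start held 3231 summits, and the 50 bp before it held 2433. From there the number fell to 1287 between 100 and 51 bp upstream and to 1028 between 100 and 149 bp downstream. Sequence within 100 bp of a start, 0.985% of the total, held 8969 summits or 19.4% (19.01 to 19.7), a density of 313 per Mb. The density was 39.0 per Mb from there to 1000 bp, 14.9 from 1000 to 5000 bp, 6.72 from 50000 to 100000 bp and 3.13 beyond 100000 bp. There were 853 summits, 1.84% (1.72 to 1.97), beyond 100000 bp.

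**Figure D1:**
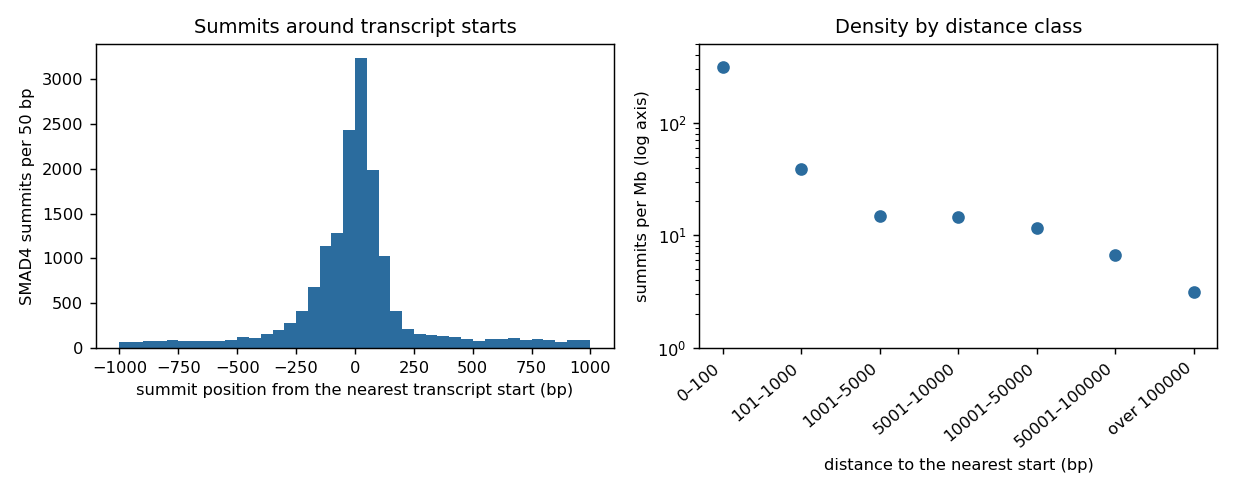
SMAD4 summits by their position from the nearest transcript start in bins of 50 bp (left, counts, upstream negative) and the density of summits per Mb of sequence in 7 distance classes (right, log axis). The count is highest, 3231, in the bin that begins at the start, and the density falls from 313 per Mb within 100 bp to 3.13 per Mb beyond 100000 bp.

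Peaks at starts were also stronger. The median fold enrichment was 7.49 in promoters (quartiles 5.71 and 9.18) and 5.85 elsewhere (quartiles 4.66 and 7.79), and the median height was 64 and 32 reads. The strongest peaks did not follow this order. When the list was cut into 10 groups of about equal size by fold enrichment, the second strongest group had the highest promoter share, 48.1% (46.6 to 49.5), the strongest group had 36.4% (35.01 to 37.8), and the 100 strongest peaks had 15 in promoters. The sequence around promoter summits was richer in G and C, with a median of 66.3% over the 250 bp to either side, against 47.5% elsewhere. Promoter summits overlapped a p300 peak by at least 0.5 of both peaks in 44.4% (43.6 to 45.3), against 12.9% (12.5 to 13.3) of the others. With DPF3a the order was the opposite, 57.2% (56.3 to 58.0) against 69.7% (69.2 to 70.2). The intervals of these shares do not overlap, and they cover counting error alone. The partner lists themselves differ, with 36.9% of the 20344 p300 peaks and 20.2% of the 51440 DPF3a peaks in promoters. What part this has in the opposite orders was not tested.

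**Figure D2:**
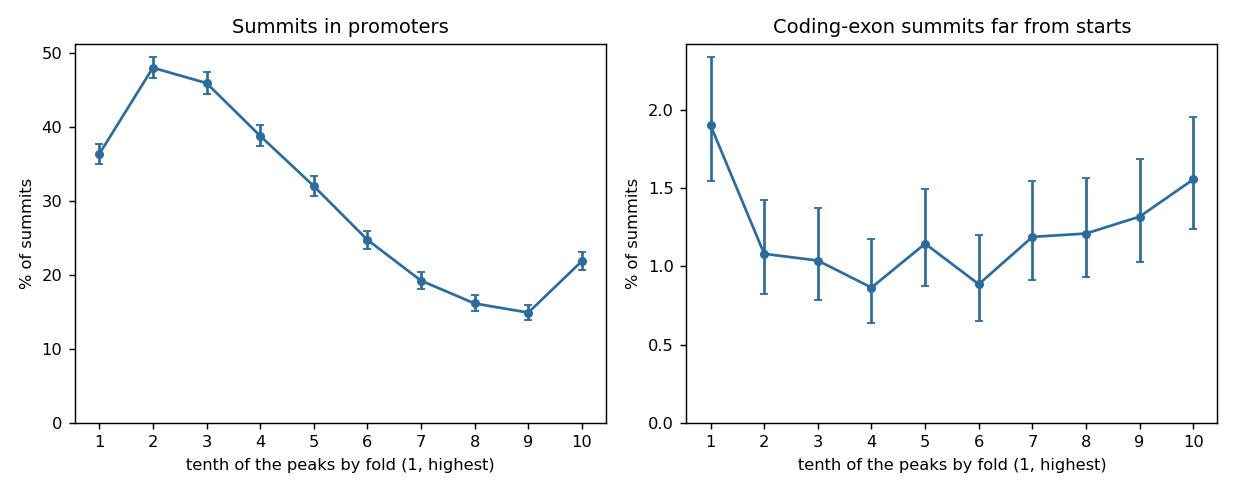
Share of summits in promoters (left) and in coding exons over 2000 bp from a protein-coding start (right) for the 46309 SMAD4 peaks in 10 groups of about equal size by fold enrichment, from the strongest to the weakest, with 95% Wilson intervals. The promoter share is highest in the second strongest group, 48.1%, and the coding-exon share in the strongest, 1.90%.

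Which genes carried SMAD4 at their starts was asked for each class of gene. Of 19970 protein-coding genes, 11461 had a summit in a promoter, which is 57.4%. The share was 17.8% of 18756 lncRNA genes and 8.04% of 1877 miRNA genes. For 54.2% of the lncRNA genes and 60.9% of the miRNA genes so marked, the strongest promoter peak also lay in a protein-coding promoter, so that the peak cannot be given to one of the genes. Of the 13815 promoter summits, 3636 lay in promoters of at least 2 genes and 3167, or 22.9%, in promoters of genes on opposite strands. Most protein-coding genes with a promoter peak had exactly 1, namely 9768, and 54 had at least 4. TNS3, which encodes a focal adhesion protein, had the most with 8, followed by DENND2B with 7 and PLEC, which encodes the cytoskeletal linker plectin, with 6. These 3 genes were chosen after their counts were seen. A wider count took any summit from 5000 bp upstream of a gene to its end, called the gene span below. By this count 14475 protein-coding genes had a SMAD4 peak, 72.5% of all.

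The pathway's own components were described in the order of signalling, from lists set out for this tissue. Of 22 ligand and receptor genes of the TGF-β and BMP pathways, 16 had a promoter summit, 72.7% (51.8 to 86.8), an interval that contains the 57.4% of all protein-coding genes. Among ligands, TGFB1 had a promoter fold enrichment of 8.04, TGFB2 of 4.58, TGFB3 of 6.67 and BMP2 of 7.10. GDF15, a stress-induced ligand of the family, had 11.6 at an alternative start, with the summit at -11609 bp from the canonical one. BMP4 and BMP7 had no promoter peak. INHBA, the gene of the activin A subunit, had 27 summits for which it was the nearest protein-coding start, and the strongest of these, 14.2-fold, lay at -177192 bp. Among receptors, the type II receptor genes TGFBR2 and BMPR2 had promoter values of 9.75 and 10.4, and the type I receptor gene ACVR1 had 11.1. TGFBR1 had no summit in the promoter window, but 1 of 8.65-fold lay 242 bp downstream of the canonical start. ACVRL1, an endothelial receptor gene, had no peak at all.

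Of 24 SMAD and SMAD cofactor genes, 23 had a promoter summit, 95.8% (79.8 to 99.3). FOXH1, a cofactor gene of early embryos, was the exception. All 8 SMAD genes were among the 23. Over all protein-coding genes the share was 57.4%, and it was 92.9% over ribosomal protein genes, so a high share is not particular to this list. The inhibitory SMAD7 had 3 promoter summits, the strongest with 12.5-fold and 258 reads. All 3 lay at alternative starts, at 2266, 8209 and 20677 bp downstream of the canonical start, and the strongest was the one at 8209 bp. None lay in the window of the canonical start. The promoter value was 11.3 for SMAD9, 9.89 for SMAD4, 9.72 for SMAD5, 8.96 for SMAD6, 8.70 for SMAD3, 7.01 for SMAD2 and 6.30 for SMAD1. SMURF2, a ubiquitin ligase gene that restrains the pathway, had 12.6, and BAMBI, which encodes a pseudoreceptor, had 12.5. TRIM33, EP300 and CREBBP, which encode a SMAD4-binding ubiquitin ligase and the acetyltransferases p300 and CBP, had 9.59, 6.77 and 7.37.

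The highest read count of any SMAD4 summit was at SKIL, the gene of the SMAD corepressor SnoN. Its promoter summit on chromosome 3 at 170357391 held 389 reads, against a median of 39 reads over all summits, with a fold enrichment of 9.04. SKIL was singled out after the values were seen. The local background at SKIL was 42.2 reads, against 15.5 reads at the GNG7 palindrome. PMEPA1, which encodes a transmembrane inhibitor of TGF-β signalling, had 2 of the 11 tallest summits, with 351 reads at 16753 bp inside the gene and 347 reads at -38747 bp. The upstream summit had a fold enrichment of 17.6 and is shown with its SMAD boxes in capitals, together with the upstream summit of JUNB, because these genes are standard readouts of the pathway.
PMEPA1 upstream, chr20:57748712-57748812: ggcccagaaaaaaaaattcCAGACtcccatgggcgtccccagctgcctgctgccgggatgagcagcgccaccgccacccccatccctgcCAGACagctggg
JUNB upstream, chr19:12784107-12784207: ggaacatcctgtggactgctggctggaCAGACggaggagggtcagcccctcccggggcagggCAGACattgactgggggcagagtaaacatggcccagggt

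Each of these windows holds 2 SMAD boxes and no palindrome. They are not typical of the windows read in the same way. No SMAD box, palindrome or AP-1 motif was in those at the strongest summits of SMAD7, CCN2, ID1, RUNX1 and TGFBR2. The same held for a weaker SKIL summit of 23 reads. The window at the strongest SLC2A1 summit did hold 2 SMAD boxes. Within 50 bp of the SKIL promoter summit of 389 reads lay a SMAD box and GGCGC. The JUNB summit lay at -7329 bp, inside the neighbouring gene HOOK2, with 309 reads and 8.99-fold. At the JUNB start itself the value was 3.63-fold with 143 reads.

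Of 34 widely used TGF-β target genes, 26 had a promoter summit, 76.5% (60.0 to 87.6), against 57.4% of all protein-coding genes. By fold enrichment their promoter summits were not unusually strong. The median of the strongest promoter peak was 5.91-fold, against 8.04-fold over all protein-coding genes with one. Read heights were not compared for the list, and they can give another order. The JUNB summit of 3.63-fold had 143 reads and the HMGA2 summit of 4.76-fold had 56, against a median of 64 over all promoter summits. The number of peaks around these genes was higher than that of all genes. The median was 8.5 assigned summits per target gene, meaning summits for which it has the nearest canonical protein-coding start, against 1 over all protein-coding genes. At least 10 were assigned to 14 of the 34 genes, 848 of all protein-coding genes, or 4.25%, having as many. The count of 848 fell to 369 with a score over 100 and to 93 with a score over 200, and was 413 by summits in the gene span. A high number was not particular to this list. The median was 6.5 for renal lineage factors and for BMP targets, 6 for actin and adhesion genes and 5 for hypoxia targets. For ribosomal protein genes it was 1 and for hepatocyte genes 0. At least 10 summits were assigned to 9 of 25 actin and adhesion genes and to 8 of 23 hypoxia targets. The number assigned to a gene also grows with the distance to its neighbours.

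SMAD7 illustrates such a locus. It had 27 assigned summits, and 17 summits lay within 100 kb of its canonical start. Their fold enrichments ran from 2.82 to 15.99, and the strongest, with 213 reads, lay 48807 bp downstream of the start and outside the gene. HMGA2, which encodes a chromatin protein, had a promoter value of 4.76, while a summit at -128732 bp reached 18.4. TGIF1 had 25 assigned summits, TPM1 24, BHLHE40 22 and THBS1 19. The promoter summits of CCN2 and FN1, which encode a matricellular protein and fibronectin, had 7.67 and 6.39. CDKN2B, LIF, COL1A2, ITGB6, TAGLN, ACTA2, TIMP3 and VASN had no promoter peak, and TAGLN, ACTA2 and VASN had no assigned summit either. ACTA2 had 2 summits in its gene span that lay nearer to another gene, the stronger of 13.1-fold.

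BMP target genes were described in the same way. Of 16 genes, 10 had a promoter summit, 62.5% (38.6 to 81.5), an interval that contains the background share of 57.4%. The inhibitors of differentiation ID1, ID2 and ID3 had low promoter fold enrichments of 4.45, 3.48 and 3.11. Their heights were 199, 108 and 94 reads, above the median of 64 reads over all promoter summits. ID2 was nevertheless among the genes with the most assigned summits, 34, of which the strongest lay at -212101 bp with 15.4-fold. ID4 had no promoter peak but a summit of 15.2-fold at -32516 bp. HAMP, the hepcidin gene of liver, and GREM1 had no peak.

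**Figure D3:**
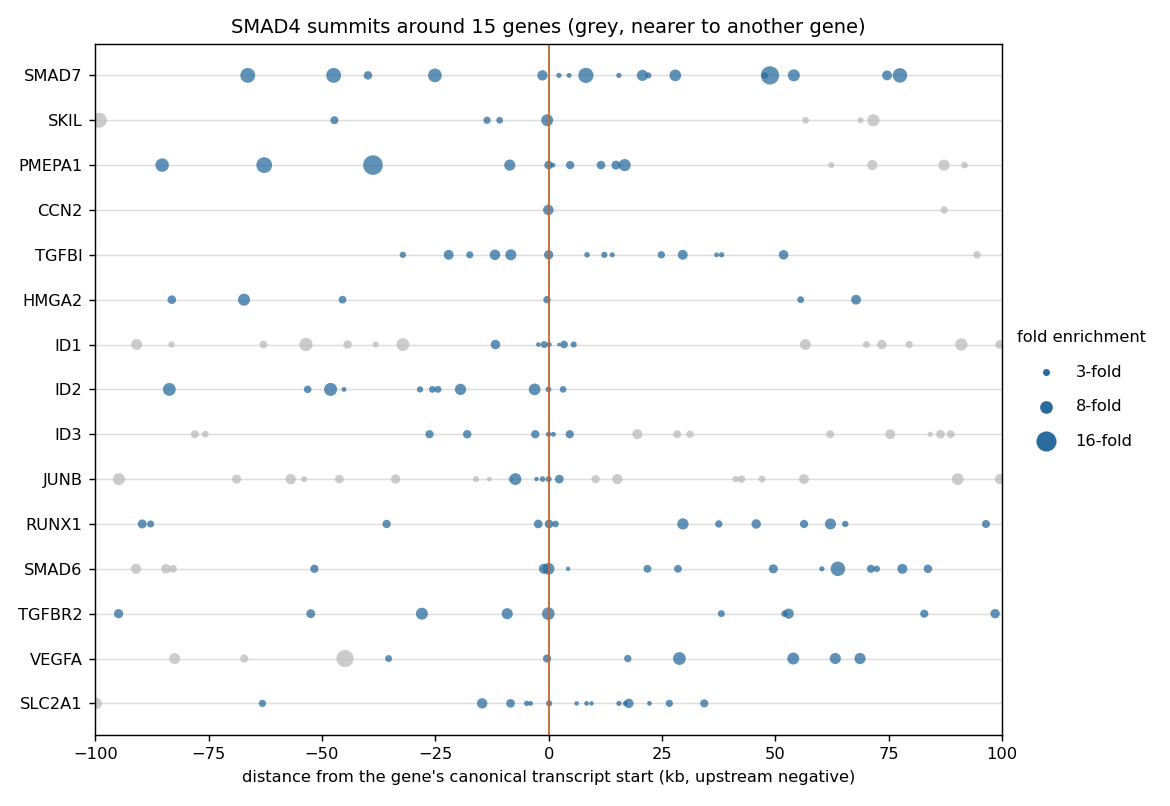
SMAD4 summits within 100 kb of the canonical start of 15 genes, by distance from the start (kb, upstream negative). Circle area grows with fold enrichment, and grey circles lie nearer to the start of another protein-coding gene. PMEPA1 and SMAD7 have their strongest summits at -38747 and 48807 bp, whereas SKIL and CCN2 have the strongest of the summits assigned to them at the start.

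Other transcription factor families that meet SMAD proteins on DNA were counted as well. Of 17 genes of AP-1 and related bZIP factors, 16 had a promoter summit, 94.1% (73.0 to 99.0). The share was 57.4% of all protein-coding genes and 92.9% of ribosomal protein genes. The strongest promoter peak per gene had a median of 5.41-fold in the AP-1 list, against 8.04-fold over all protein-coding genes with one. FOSL2 had 20 assigned summits, JUN 18, CEBPD 17 and CEBPB 13, and the promoter values of FOSL2, JUN, JUND and ATF3 were 3.46, 4.92, 6.46 and 10.6. Of 17 Hippo pathway effectors and targets, 15 had a promoter summit, 88.2% (65.7 to 96.7). YAP1 and WWTR1, the genes of the coactivators YAP and TAZ, had 3 promoter summits each, and TEAD1, their DNA-binding partner, had 15 assigned summits. ANKRD1, a target of YAP, had a promoter value of 11.8.

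Genes of cell shape and movement were a further group. Of 25 actin and adhesion genes, 24 had a promoter summit, 96% (80.5 to 99.3), and MYL9 was the exception. ACTN1, an actin crosslinker gene, and ANXA2 had 4 promoter summits each. PALLD, which encodes an actin scaffold protein, had 26 summits in its gene span, the strongest promoter summit having 12.2-fold. Of 21 genes of epithelial to mesenchymal transition, 15 had a promoter summit, 71.4% (50.04 to 86.2), which is not separate from the 57.4% of all protein-coding genes. ZEB2, a repressor of epithelial genes, had 25 assigned summits but a promoter value of 3.72, and TNC and CDH2 had 23 and 21. TWIST1 and POSTN had none in the gene span. CDH1, the E-cadherin gene, had 10 there but none in its promoter, and the strongest had 20.2-fold, which is among the 50 strongest SMAD4 peaks.

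Renal cell carcinoma is marked by hypoxia signalling and by loss of tubule functions, so both were listed. Of 23 hypoxia target genes, 21 had a promoter summit, 91.3% (73.2 to 97.6), and all 23 had a summit in the gene span. Over all protein-coding genes these shares were 57.4% and 72.5%, and over ribosomal protein genes 92.9% and 94.0%, so high shares are not particular to this list. SLC2A1, the gene of the glucose transporter GLUT1, had 11 summits in its span, the strongest of 6.63-fold. Of these 4 lay in promoters, the strongest with 4.68-fold and 114 reads. That summit was at an alternative start, 26616 bp downstream of the canonical one. The summit 107 bp downstream of the canonical start had 3.76-fold. EPAS1, which encodes HIF-2α, had 23 assigned summits, VEGFA had 12, and the promoter values of PLOD2, P4HA1 and EGLN3 were 12.1, 10.9 and 10.3. CA9 and NDUFA4L2 had no promoter summit. Of 22 transcription factor genes of the renal lineage, 11 had a promoter summit, 50% (30.7 to 69.3), an interval around the same 57.4%. PAX2 and PAX8 had 5.74 and 4.13, whereas LHX1 and EYA1 had no peak. Of 18 genes of tubule and glomerulus function, 3 had a promoter summit, 16.7% (5.84 to 39.2), with SLC5A2 at 9.41, SLC12A1 at 8.53 and SCNN1A at 4.22. CUBN, the cubilin gene of the proximal tubule, had no promoter summit but 20 in the gene span.

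Lists of other lineages gave the lower end of the range, the share over all protein-coding genes being 57.4%. A promoter summit was found at 1 of 16 hepatocyte genes, APOH, at 1 of 17 lymphocyte and erythroid genes, CD8A, and at 1 of 16 keratinocyte and muscle genes, KRT15. Neuron genes had 7 of 15, 46.7% (24.8 to 69.9), among them SYP with 13.9-fold and MAP2 with 9.91-fold. Of 415 olfactory receptor genes, 1 had a promoter summit, 0.241% (0.0425 to 1.35), and of 55 keratin genes 8 had one, 14.5% (7.56 to 26.2). Collagen genes had 13 of 44, histone genes 32 of 82 and integrin genes 15 of 26. Ribosomal protein genes lay near the upper end, with 78 of 84, 92.9% (85.3 to 96.7). Cell cycle genes had 18 of 22, 81.8% (61.5 to 92.7). ZNF genes had 364 of 508, 71.7% (67.6 to 75.4), and a median strongest promoter peak of 8.27-fold. These lists are descriptions of where peaks lie, and gene expression was not measured here.

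**Figure D4:**
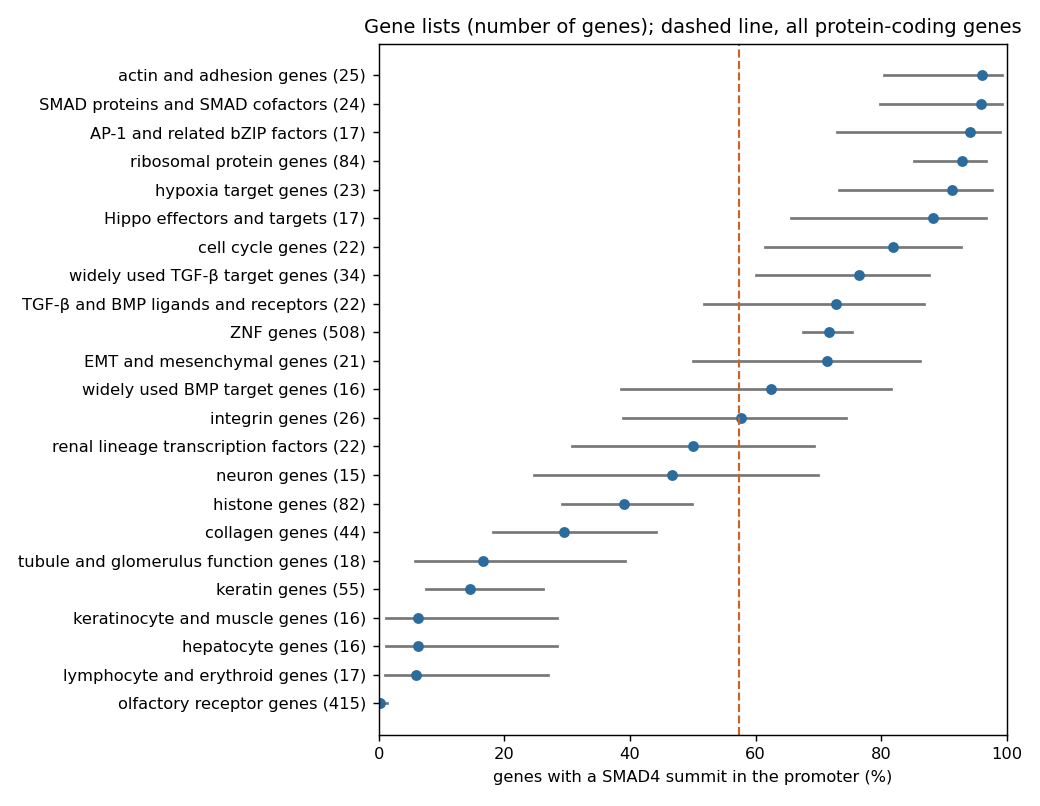
Share of the genes of 23 lists with a SMAD4 summit in the promoter, with 95% Wilson intervals and the number of genes in parentheses. The dashed line marks 57.4%, the share of all protein-coding genes. Actin and adhesion genes, SMAD genes and AP-1 genes lie above 94%, and the hepatocyte, lymphocyte and erythroid, keratinocyte and muscle and olfactory receptor lists lie below 7%.

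Summits were unevenly spread over genes. When each summit was assigned to the nearest canonical protein-coding start, 5489 genes received none, 5848 received 1, and 848 received at least 10. These 848 genes, 4.25% of the total, took 26.5% of all summits, and the number of such genes depends on the score as given above. TNS3 on chromosome 7 had the most, 57, and 22 summits lay in its gene span. Among the other leading genes, ZMIZ1, a coactivator gene, had 42, SOX9 and TRIB1 had 38, ZFP36L1 and ZNF608 had 37, and IGFBP3 and TENM3 had 36. CRYBA4 and TBL1XR1 had 35, BCOR, ID2 and RUNX1 had 34, and ASAP1 and KLF6 had 33. Summits per territory, meaning the span to the midpoints toward the neighbouring starts, allow for the distance between genes. Over all genes the value was 1.53 per 100 kb, and it was 5.62 for TNS3, 6.39 for ZMIZ1, 6.38 for ZFP36L1, 4.89 for RUNX1 and 1.32 for TENM3, where the territory of TENM3 was 2737 kb. CRYBA4 had no summit in its gene span, and all 35 lay between 23427 and 580868 bp downstream of its start.

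By summits in the gene span, RUNX1, a transcription factor gene whose product partners with SMAD proteins, led with 46, followed by RAD51B with 45, FRMD4A with 40 and KAZN with 38. Long genes lead such a count, RUNX1 spanning 1217 kb in this annotation. Per 10 kb of gene span, among genes with at least 5 summits, LFNG was the densest with 3.70, followed by ENSG00000272896 with 3.52, HOXA9 with 3.38, the readthrough gene ENSG00000257184 with 3.26 and GDF15 with 3.09. SLC2A1 had 2.85, the lymphotoxin receptor gene LTBR 2.79, IFFO1 2.71 and HOXA3 2.53. LFNG encodes a glycosyltransferase that modifies Notch receptors. Its strongest summit had 6.52-fold.

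Summits within 12.5 kb of one another were joined into groups. Of 29067 groups, 19596 were single summits, which is 42.3% of the peaks, and 64 groups held at least 10. The largest held 25 summits over 88.5 kb of the HOXA cluster on chromosome 7, from 27096161 to 27184618, which encodes a row of homeobox factors. In that group 15 of the 25 summits were in promoters, none had the AP-1 motif within 50 bp, and the median fold enrichment was 3.41. The group at ZMIZ1 had 22 summits over 95.6 kb, of which 2 were in promoters, and a median of 4.75. Further groups held 21 summits near ENSG00000258989 on chromosome 14, 20 at MYH9 and TXN2 on chromosome 22, 19 at CARD10 and CDC42EP1 on the same chromosome and 19 near MRPL14 on chromosome 6.

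Sequence motifs at the summits were counted within 50 bp on either side and in windows of the same length 500 bp away. Matches were exact and on both strands, and they describe letters, not bound proteins. The AP-1 motif, TGACTCA or TGAGTCA, was the most enriched of those searched at summits outside promoters. It lay at 19.4% of these summits (18.97 to 19.8), 11.2 times its share in the flanking windows. The share was 4.70% (4.36 to 5.06) at promoter summits, 16.9% at other summits within 5000 bp of a start, 20.3% from there to 50000 bp and 21.8% beyond. Outside promoters there were 45.7 matches per 1000 summits in the 20 bp that follow the summit, against 3.75 per 1000 in the 20 bp that begin at -500 bp. The RUNX motif AACCACA was at 7.80% of summits outside promoters, 4.72 times its flanking share, and the TEAD motif CATTCCA at 4.40%, 2.45 times. Rarer motifs had ratios of similar size. The CTCF motif, AGGGGGCGC or AGGTGGCGC, was at 0.403% of these summits, 6.39 times its flanking share. The HNF1 motif GTTAATNATT was at 0.517%, 3.91 times. They rest on 131 and 168 summits.

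The SMAD elements themselves differed in frequency. The SMAD box CAGAC was at 26.8% of summits outside promoters and 19.6% of promoter summits, 1.53 and 1.10 times its flanking shares. The palindrome was at 0.283% outside promoters, 6.57 times its flanking share, but rests on 92 summits. Outside promoters the shares were higher at strong summits. From the weakest to the strongest of 4 groups by fold enrichment, the palindrome rose from 0.137% (0.0800 to 0.234) to 0.658% (0.489 to 0.885), the SMAD box from 24.4% (23.5 to 25.2) to 34.5% (33.3 to 35.7), and AP-1 from 15.8% (15.04 to 16.5) to 24.1% (23.1 to 25.2). The SMAD box was at 28.1% (27.0 to 29.2) of the summits outside promoters that had AP-1 and at 26.5% (26.0 to 27.1) of those without it. Summits with AP-1 overlapped a DPF3a peak in 82.1% (81.1 to 83.0), and those without it in 66.7% (66.1 to 67.3). For p300 these shares were 12.5% and 13.0%, with intervals that overlap. Of the 4 strongest summits with AP-1 outside promoters whose windows were read, 3 also had a SMAD box. The summit nearest to FZD2, a Wnt receptor gene, is shown as an example of both elements in 1 window, and capitals mark AP-1 and the SMAD box.
FZD2 region, chr17:44587499-44587599: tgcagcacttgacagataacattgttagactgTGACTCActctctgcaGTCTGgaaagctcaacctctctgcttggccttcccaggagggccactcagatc

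GTCTG is the SMAD box read on the other strand. The FZD2 summit had 288 reads and 20.1-fold. In promoters another set of motifs was frequent. GGCGC, the GC-rich SMAD element, was at 46.0% of promoter summits (45.2 to 46.8), 2.12 times its flanking share, and GGGGCGG, the motif of SP and KLF factors, at 16.5%, 2.48 times. The ETS motif CCGGAAGT was at 1.61% of promoter summits, 8.42 times its flanking share, and its share rose from 0.432% in the weakest of the 4 groups to 2.203% in the strongest. Both of these motifs were more frequent beside the summit than on it. In bins of 20 bp, ETS had 34 matches in the bin that begins at the summit, 82 in that at -120 bp and 81 in that at 80 bp, and GGGGCGG had 561, against 890 at -140 bp and 956 at 120 bp. GGCGC consists of G and C alone, and the part of base composition in its share was not tested.

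**Figure D5:**
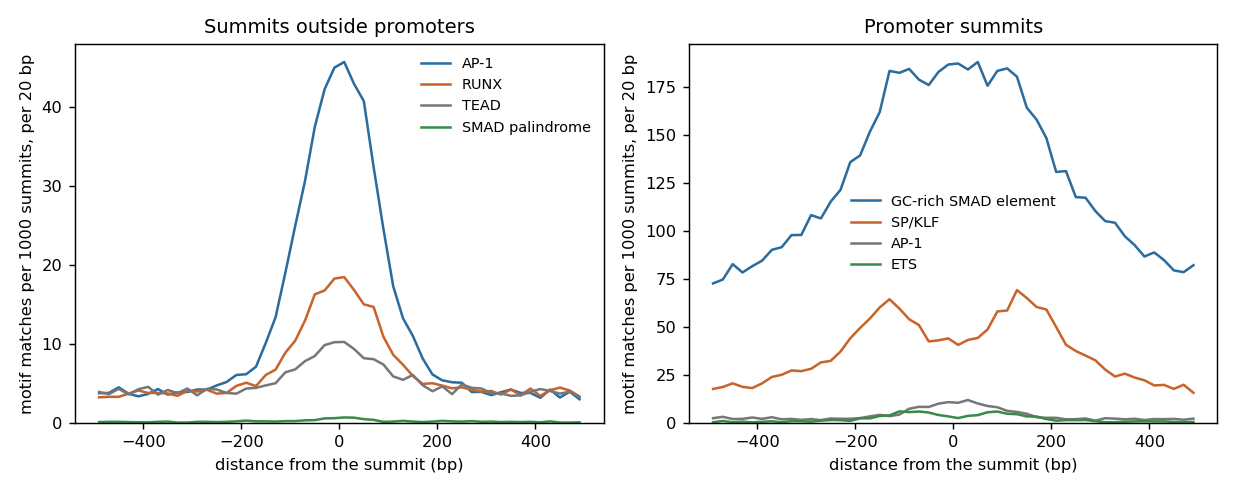
Matches of motifs per 1000 SMAD4 summits in bins of 20 bp, by distance from the summit, outside promoters (left) and in promoters (right). Outside promoters AP-1, RUNX and TEAD peak at the summit, and the palindrome, present at 0.283% of these summits, stays near the axis. In promoters GGCGC is at 46.0% of the summits, and the SP/KLF and ETS lines are higher to the sides of the summit than on it.

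The same motifs were counted over gene promoters of fixed length, from 250 bp before to 50 bp after the start of RefSeq genes in GRCh38.p14. A promoter was matched for 76.7% of the protein-coding genes, which is too few for a check over all genes, so the shares describe the matched genes only. Promoters of the 9213 genes with a SMAD4 promoter peak had GGCGC in 77.2% (76.3 to 78.0), against 42.4% (41.1 to 43.6) of the 6109 without one. The ETS motif was in 9.33% (8.76 to 9.95) against 1.80% (1.496 to 2.17), and AP-1 in 2.996% (2.67 to 3.36) against 4.71% (4.21 to 5.27). The median content of G and C was 65.7% against 57%.

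The strongest SMAD4 peaks by fold enrichment lay mainly outside the promoters of pathway genes. Of the first 10, 3 lay within 20000 bp of an assembly gap, on chromosome 3 at 93470591 with 34.6, on chromosome 17 at 26603911 with 30.1 and on chromosome 16 at 46390713 with 24.9. A further pair lay in lncRNA promoters of duplicated regions, at ENSG00000290832 near SPDYE8 with 26.7 and at ENSG00000289029 near NPIPB11 with 23.05. The other 5 lay inside genes of kinases and of SMAD4 itself. Introns of NTRK3, NTRK2 and ATM had 25.9, 24.7 and 24.1, and coding exons of SMAD4 and FLT3 had 24.2 and 24.1. None of these 5 overlapped a DPF3a or p300 peak at 0.5 of both peaks. Regions with near-identical copies, such as those of SPDYE8, NPIPB11, POM121C, NOTCH2NLC and ANXA8L1, are uncertain. The authors' filter on mapping quality removes reads that fit several copies equally well, and its effect on these values was not tested.

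Summits in coding exons over 2000 bp from a protein-coding start numbered 564, 1.22% of all, but 13 of the 100 strongest. They lay in 493 genes, and 8 genes had at least 3. EGFR, which encodes a growth factor receptor, had 6, ATM 4, ERBB2 4, and DDR2 and PIK3R1 3 each, and the most in 1 gene was 16. These genes were chosen after their counts were seen. Of the 564, 47.9% overlapped a DPF3a peak (43.8 to 52.0), against 65.9% of all SMAD4 peaks. They had AP-1 in 10.5% (8.20 to 13.3), which is 10.7 times the 0.975% of their flanking windows. Over all summits outside promoters these values were 19.4% and 11.2 times. Whether such peaks arise from SMAD4 binding was not tested.

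Without summits near gaps or in such exons, the 15 strongest ran from 26.7 to 21.1. This order depends on the measure, since by −log10 q 1 of the 15 remained among the 15 highest. Beside the loci named above they lay in the POM121C promoter (22.6), at -12835 bp from BPI (22.6), in an intron of TSPAN18 (22.3), upstream of IGFL4 (22.1), in an intron of ENSG00000284977 on chromosome 9 (21.8), in an intron of TBC1D2B (21.7), in the STARD4-AS1 intron with the palindrome (21.6), and in the NOTCH2NLC promoter (21.5). The remaining ones lay near ANXA8L1 (21.2) and in the promoter of IDO1 (21.1), which encodes an enzyme of tryptophan breakdown. The TSPAN18 and IGFL4 summits held the RUNX motif, and the former had 305 reads.

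The strongest protein-coding promoter peaks beside POM121C, NOTCH2NLC and IDO1 included those of ERBB4 with 21.1, CAPS2 with 19.3 and IL21R with 18.8. NRG1, the gene of an ERBB ligand, had a pair of alternative promoters with 18.5 and 18.2. MFSD14B had 18.0, GPNMB 17.8, CDK11A 17.6, RNF212 17.5, ACTBL2 17.3 and GAS7 16.9. The ERBB4 summit also lay in a coding exon far from the canonical start. Several of the others lay at alternative starts too. The summits of POM121C, IDO1, RNF212 and GAS7 were 43647, 3865, 31124 and 83505 bp downstream of their canonical starts. For the GPNMB summit the nearest canonical protein-coding start was that of MALSU1, from which it lay at -26004 bp. The GPNMB promoter, of a gene for a transmembrane glycoprotein of tumour cells, had 227 reads and both an AP-1 motif and a SMAD box within 50 bp of the summit. After ENSG00000290832 and ENSG00000289029, the strongest lncRNA promoters were POLR2J4 with 20.6, ENSG00000267366, inside the TGF-β regulator gene LDLRAD4, with 18.0, and MFSD14CP with 17.3. Among miRNA genes the strongest were MIR6831 with 13.1, MIR1208 with 12.7, MIR320A with 12.3, MIR4707 with 11.2 and MIR4522 with 11.1. All of these except MIR1208 shared their peak with a protein-coding promoter, such as APBB3 for MIR6831 and POLR3D for MIR320A.

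Peaks were also compared between chromosomes. The density ran from 6.77 per Mb on X to 31.5 per Mb on chromosome 19, which also had the most protein-coding genes per Mb, 25.3. The share of protein-coding genes with a promoter peak was lowest on X, 40.05% (36.8 to 43.4), and highest on chromosome 2, 64.4% (61.7 to 67.0). The median fold enrichment differed little, from 5.90 on chromosome 7 to 6.97 on chromosome 13. Copy number of the cell line was not measured here.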

How the data were processed

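SMAD4, DPF3a and p300 ChIP-seq in 786-O cells had 2 libraries per factor. Per the study's methods and the submitters' processing notes, the authors trimmed reads with cutadapt, mapped them to hg38 with Bowtie2 2.3.5.1, filtered out poorly mapped and mitochondrial reads, removed duplicates with Picard and called peaks with MACS2 2.2.5. No control library is named. The deposited list of each factor stands for both libraries, which were combined in a way not given in the sources used here. It gives the fold enrichment, a ratio of summit to background reads each plus 1, the −log10 p and −log10 q of the authors' caller, and a score deposited by the authors that grows with −log10 q and has 51 as its lowest value here.

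The depth of the libraries is not in the lists. Summit heights in reads were recovered from fold and −log10 p, which were matched with an error of at most 8.6e-04, and the median of 39 reads limits precision at weak peaks. Summits were placed against GENCODE 44 with python 3.11.15 and numpy 2.4.6. The code was tested on simulated data and against bedtools 2.31.1, with identical distances for all 46309 summits. Canonical starts are those tagged in the annotation. Motifs were exact consensus matches.

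The members, gene lists, motifs and rules for named loci (the strongest by fold, the genes with most or densest summits, the largest groups) were chosen with earlier results of these data known. The gene lists come from general knowledge, and 1 symbol, LOR, was not found. A few genes and windows that these rules name are not reported here. With 1 list per factor no test between groups was made. The alternatives were higher scores, other starts, windows and assignments, and other measures of strength.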

Additional observations from a re-analysis of the deposited data

Results flagged for a closer look

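The SMAD4 list also held 58 peaks on sequences other than chromosomes 1 to 22 and X, which no comparison above used and which are a signal outside the main measurement.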

How the results depend on the processing

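No paired analysis was possible because the 2 SMAD4 libraries share 1 peak list, and for that reason neither library could be left out. The alternatives were planned, except that leaving out summits in coding exons far from starts or near gaps was extended, after the data were seen, to the promoter share and the promoter genes, where it gave 29.9% and 11416 genes. For the values that moved, the cause was not tested. Peaks that scored over 200 numbered 21369, their promoter share was 46.4%, their median distance 762 bp and 93 genes had at least 10 assigned summits. The shares at that score were 21.98% for AP-1 and 0.463% for the palindrome outside promoters, 52.1% for GGCGC in promoters, 31.3% for BMP targets, 27.3% for renal factors, 52.6% for ZNF, 15.9% for collagen and 34.6% for integrin genes, and 0% for lymphocyte and erythroid and for olfactory receptor genes, against 48.0% of all protein-coding genes. With a score over 100 the promoter share was 36.8%, the median distance 2799 bp and 369 genes had at least 10. With protein-coding starts only, the promoter share was 25.7% and the median distance 9784 bp, and with canonical starts the distance was 8686 bp. Promoters of 1000 bp to either side held 34.6%. Summits inside the gene or 5000 bp upstream left 413 genes with at least 10. By −log10 q the ratio of promoter to other medians was 2.40 and by height 2, against 1.28 by fold. Windows of 100 bp to either side gave 32.1% for AP-1, 0.428% for the palindrome and 64.9% for GGCGC. A summit in the gene or up to 5000 bp upstream was found at 90.9% of ligand and receptor genes, 100% of SMAD, AP-1 and hypoxia genes, 90.5% of mesenchymal, 61.1% of tubule, 31.3% of hepatocyte, 73.3% of neuron, 37.5% of keratinocyte and muscle, 2.41% of olfactory receptor, 84.1% of ZNF, 34.5% of keratin, 68.2% of collagen, 92.3% of integrin and 74.4% of histone genes, against 72.5% of all protein-coding genes. Of the 15 strongest loci, 1 remained among the 15 of highest −log10 q. The counts of genes with a promoter peak or a peak nearby stayed within 1.5 times under every alternative run.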
